A study of Rattus norvegicus with 36 samples.

Results

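The genes described here are those of the interferon response, antigen processing and the sensing of double-stranded RNA, followed across rat CG-4 cells that had received small interfering RNA (siRNA), carried a short hairpin RNA (shRNA) or had received neither. They were listed by symbol, 42 in all, and each was taken from the transcript cluster annotated to that symbol alone in the gene-level table. Of the 42 symbols 30 had such a cluster among the 18901 on the array. The other 12 have no value here: Irf3 shared its cluster with another gene, and no cluster bore the symbol of Ifih1, Ddx58, Dhx58, Tbk1, Eif2ak2, Ifnar2, Irf7, Usp18, Xaf1, Psmb10 or Nlrc5. By role, 4 of 9 listed RNA sensors and their partners were measured, 5 of 8 interferon receptors and transcription factors, 16 of 18 interferon-induced effectors and 5 of 7 antigen processing genes.

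CG-4 is a permanent line of rat oligodendrocyte progenitor cells, the cells that give rise to the myelin-forming cells of the brain. QKI (quaking) binds RNA, regulates splicing and is required for myelin to form, and hnRNP A1 is another nuclear regulator of splicing. RNA was hybridised to Affymetrix rat exon arrays, and the gene-level table gives 1 log2 intensity for each transcript cluster on each of 18 arrays. The 6 groups held 3 arrays each, which the labels name biological replicates without saying whether they came from separate cultures, so the p-values measure the spread between these arrays only. The groups were cells with transient QKI siRNA, cells with transient hnRNP A1 siRNA, cells with transient non-silencing siRNA, a stable line with QKI shRNA, a stable line with non-silencing shRNA, and untreated cells. All were CG-4 cells grown in medium conditioned by B104 neuroblastoma cells. The labels name Lipofectamine 2000 as the transfection agent on every array, also those of untreated cells, which another label calls untransfected. No group is labelled as a control with the transfection agent and no RNA. Whether the untreated cells received the agent cannot be told from these labels. Whether each stable line is 1 clone or a pool, and how the hairpins were delivered, is not given in the sources used here, so a difference between the lines cannot be told apart from a difference between clones.

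Double-stranded RNA in the cytoplasm is bound by the RIG-I-like helicases, which signal through MAVS, and in endosomes by TLR3. Both routes activate interferon regulatory factors, the secreted interferons act back through their receptors, and a complex that holds STAT2 and IRF9 then switches on a broad set of antiviral genes from interferon-stimulated response elements. Interferon also raises the immunoproteasome and the TAP transporter, which make and carry peptides for MHC class I, and long double-stranded RNA, and some siRNAs and hairpins, can set the same response off.

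The array medians lay between 3.77 and 4.18 log2 units, and any 2 arrays correlated at 0.937 to 0.991. For 7 of 18 arrays the closest array was one of another group. QKI shRNA array 3 was closest to untreated array 2, and untreated array 3 to QKI siRNA array 1. The targeted gene Qki was at 9.99, 10.02 and 9.67 with QKI siRNA, against 11.47, 11.39 and 11.14 with non-silencing siRNA, without overlap and without a call (-1.44 ± 0.22, limma adjusted p = 0.179). Hnrnpa1 was at 7.90, 7.85 and 7.65 with hnRNP A1 siRNA, against 8.60, 8.47 and 8.44 with non-silencing siRNA, likewise (-0.70 ± 0.19, limma adjusted p = 0.393). In the QKI shRNA line Qki was at 10.65, 10.35 and 11.14, against 10.90, 11.01 and 10.99 in the non-silencing line and 11.85, 11.63 and 10.84 in untreated cells. The library labelled QKI shRNA array 3 thus lay above all 3 non-silencing shRNA arrays, against its label, and the Qki difference between the lines was not called (limma log2 difference -0.25 ± 0.22, adjusted p = 0.656), so that every direction given for this line follows the label. Of 9 listed progenitor markers 6 were measured, and Gpr17, Nkx2-2, Olig1, Ptprz1 and Sox10 were bright while Cspg4 was dim. Pdgfra and Olig2 were among those with no value.

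A gene was called when limma gave an adjusted p under 0.05, with Benjamini-Hochberg adjustment over all 18901 clusters, in a fit of all 18 arrays. Log2 differences are given as first group minus second with the moderated standard error after ±, with 3 arrays per group. In 12 comparisons 11 of the 30 measured members were called at least once and 19 never. Of the 30, 13 had a mean below the median of all clusters and 5 a mean below the 25th percentile, where array background compresses differences. Probes differ in affinity, so values are compared between groups within a gene and not between genes. A bulk measurement cannot tell fewer cells of a type from less RNA per cell. Closely related copies of the Ifit, Oas, Mx, Gbp and Ifitm genes can share probes, and values of these members are uncertain to that extent.

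**Figure D1:**
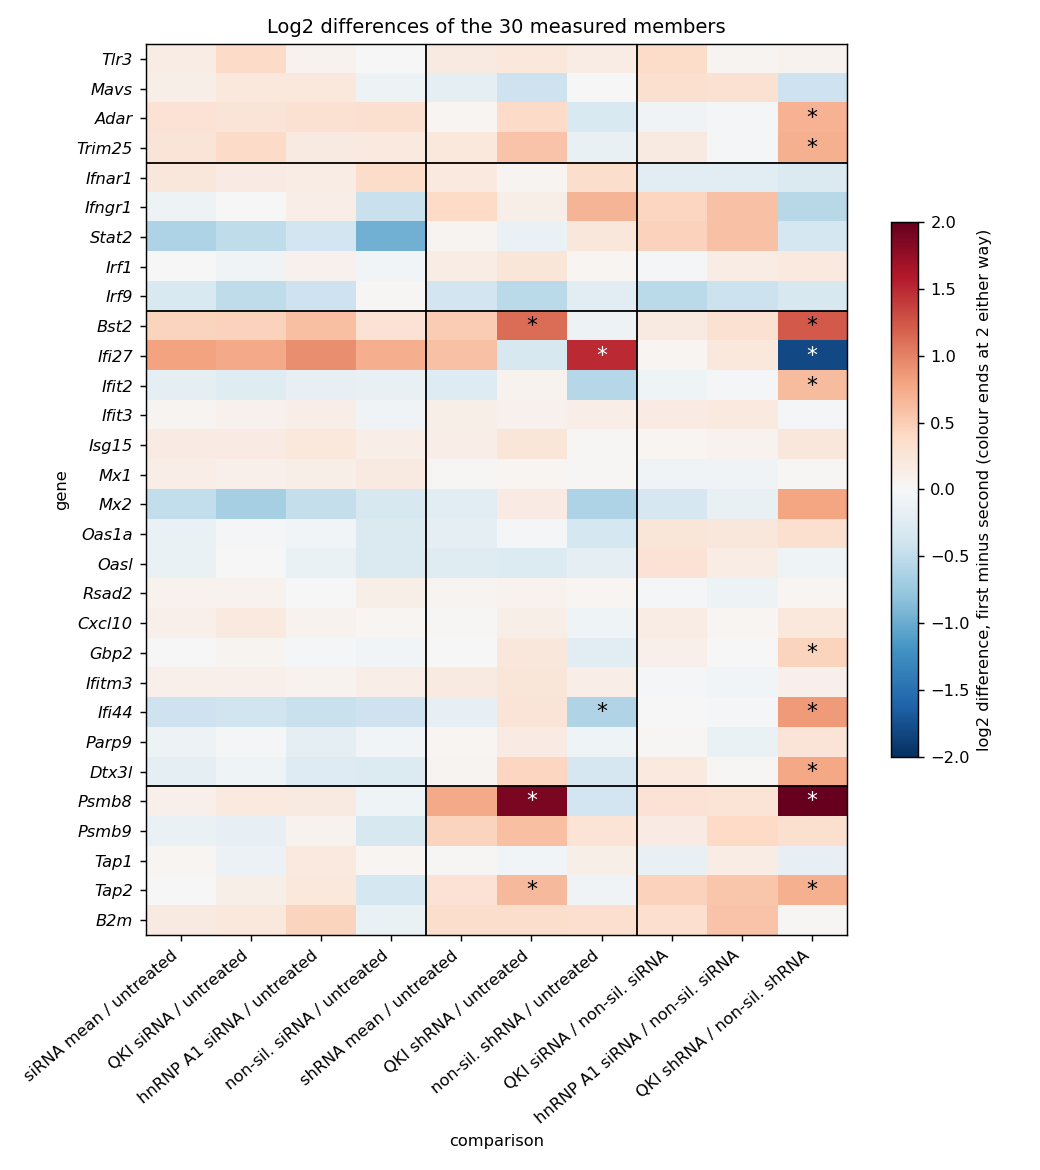
Log2 differences of the 30 measured members (rows, grouped by role with lines between roles: RNA sensors, receptors and transcription factors, effectors, antigen processing) in 10 comparisons (columns). Red is higher and blue lower in the group named first, stars mark an adjusted p under 0.05, and colours end at 2, which Psmb8 at 2.27 exceeds. The stars stand in the columns of the QKI shRNA line and of the non-silencing shRNA line, and the siRNA columns hold none.

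The question whether transfected siRNA was accompanied by a double-stranded RNA response was asked by setting the siRNA groups against untreated cells. Limma called 0 of 30 members for the mean of the siRNA groups, with 0.857% of all clusters called. At an unadjusted p under 0.05 stood 4 members, beside 16.7% of all clusters. The same test called 0 of 30 members for QKI siRNA alone with 0.46% of all clusters, 0 for hnRNP A1 siRNA with 0.296% and 0 for non-silencing siRNA with 0.0794%. Unadjusted, 4 members passed that threshold for QKI siRNA beside 17.1% of all clusters, 4 for hnRNP A1 siRNA beside 12.5% and 5 for non-silencing siRNA beside 10.3%. The median log2 difference of the members for the mean of the siRNA groups was 0.04, beside 0.10 over all clusters, and 16 of 30 members lay above 0, beside 70.2% of all clusters.

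Of 9 measured genes that serve as standard readouts of this response or sense its trigger, 7 lay below the array median on all 18 arrays, Ifit2 on 4 and Adar on 0. Isg15 encodes a ubiquitin-like protein that is attached to other proteins after interferon. Its log2 intensity was 3.09, 3.16 and 3.13 with QKI siRNA, 3.06, 3.22 and 3.20 with hnRNP A1 siRNA and 3.06, 2.90 and 3.31 with non-silencing siRNA. It was 3.10, 3.26 and 3.27 in the QKI shRNA line, 3.18, 2.85 and 2.90 in the non-silencing shRNA line, and 2.92, 2.88 and 3.08 in untreated cells. All 18 values lay below the median of their array.

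Ifit3, whose product is an antiviral tetratricopeptide protein, was at 3.15, 3.35 and 3.30 with QKI siRNA, 3.39, 3.46 and 3.08 with hnRNP A1 siRNA and 3.22, 3.15 and 2.96 with non-silencing siRNA. It was at 3.28, 3.17 and 3.35 in the QKI shRNA line, 3.25, 3.30 and 3.37 in the non-silencing shRNA line and 3.31, 3.36 and 2.86 in untreated cells. The other 5 groups overlapped the untreated range, which untreated array 3 widened downwards. Its relative Ifit2 was somewhat brighter, at 4.08, 4.14 and 4.04 with QKI siRNA, 3.91, 4.30 and 4.28 with hnRNP A1 siRNA and 4.26, 4.19 and 4.09 with non-silencing siRNA. In untreated cells it was at 4.61, 4.27 and 4.12, so the siRNA groups lay within or below the untreated values.

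Mx1, a dynamin-like GTPase that blocks viruses, was at 2.96, 3.29 and 3.42 with QKI siRNA, 3.10, 3.32 and 3.26 with hnRNP A1 siRNA and 3.24, 3.22 and 3.43 with non-silencing siRNA. It was at 2.95, 3.32 and 3.20 in the QKI shRNA line, 3.11, 3.11 and 3.19 in the non-silencing shRNA line and 3.05, 3.21 and 3.08 in untreated cells. The non-silencing siRNA arrays lay just above the untreated ones and the other groups overlapped them. Rsad2 encodes viperin, an antiviral radical-SAM enzyme. Its values were 3.46, 3.60 and 3.41 with QKI siRNA, 3.34, 3.37 and 3.56 with hnRNP A1 siRNA and 3.50, 3.48 and 3.59 with non-silencing siRNA. They were 3.79, 3.25 and 3.42 in the QKI shRNA line, 3.34, 3.61 and 3.39 in the non-silencing shRNA line and 3.48, 3.43 and 3.34 in untreated cells. The QKI shRNA line spanned both the highest and the lowest of these 18 values.

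Cxcl10, a chemokine that draws T cells, was at 3.66, 3.92 and 3.87 with QKI siRNA, 3.69, 3.99 and 3.42 with hnRNP A1 siRNA and 3.90, 3.25 and 3.85 with non-silencing siRNA. It was at 3.58, 3.97 and 3.69 in the QKI shRNA line, 3.18, 3.94 and 3.49 in the non-silencing shRNA line and 3.44, 3.56 and 3.87 in untreated cells. All groups overlapped. Oas1a makes the short oligoadenylates that activate RNase L once double-stranded RNA is bound. It was at 3.41, 3.65 and 3.79 with QKI siRNA, 3.70, 3.70 and 3.39 with hnRNP A1 siRNA and 3.36, 3.49 and 3.26 with non-silencing siRNA. It was at 3.51, 4.07 and 3.31 in the QKI shRNA line, 3.64, 2.98 and 3.29 in the non-silencing shRNA line and 3.67, 3.60 and 3.69 in untreated cells. The non-silencing siRNA arrays lay below all 3 untreated arrays, and no siRNA group lay above them.

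Among the sensors, Tlr3, the endosomal receptor of double-stranded RNA, was at 3.30, 3.54 and 3.998 with QKI siRNA, 3.17, 3.48 and 3.25 with hnRNP A1 siRNA and 3.21, 3.17 and 3.35 with non-silencing siRNA. It was at 3.39, 3.55 and 3.42 in the QKI shRNA line, 3.35, 3.56 and 3.24 in the non-silencing shRNA line and 3.22, 3.14 and 3.34 in untreated cells. The QKI siRNA group was the highest but overlapped untreated cells (log2 difference 0.38 ± 0.15, limma adjusted p = 0.242). Adar, which edits adenosines in double-stranded RNA and has an interferon-induced form, was bright, at 6.98, 6.71 and 6.67 with QKI siRNA, 6.85, 6.48 and 7.15 with hnRNP A1 siRNA and 6.80, 6.87 and 6.90 with non-silencing siRNA. Untreated cells had 6.17, 6.30 and 7.12, and untreated array 3 lay above all but 1 of the siRNA arrays. Mavs, the adaptor of the RIG-I-like helicases, ranged from 4.46 to 5.11 in the siRNA groups and from 4.44 to 4.87 in untreated cells. The helicases themselves (Ifih1, Ddx58 and Dhx58), the kinase PKR (Eif2ak2) and Irf7 had no value here.

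**Figure D2:**
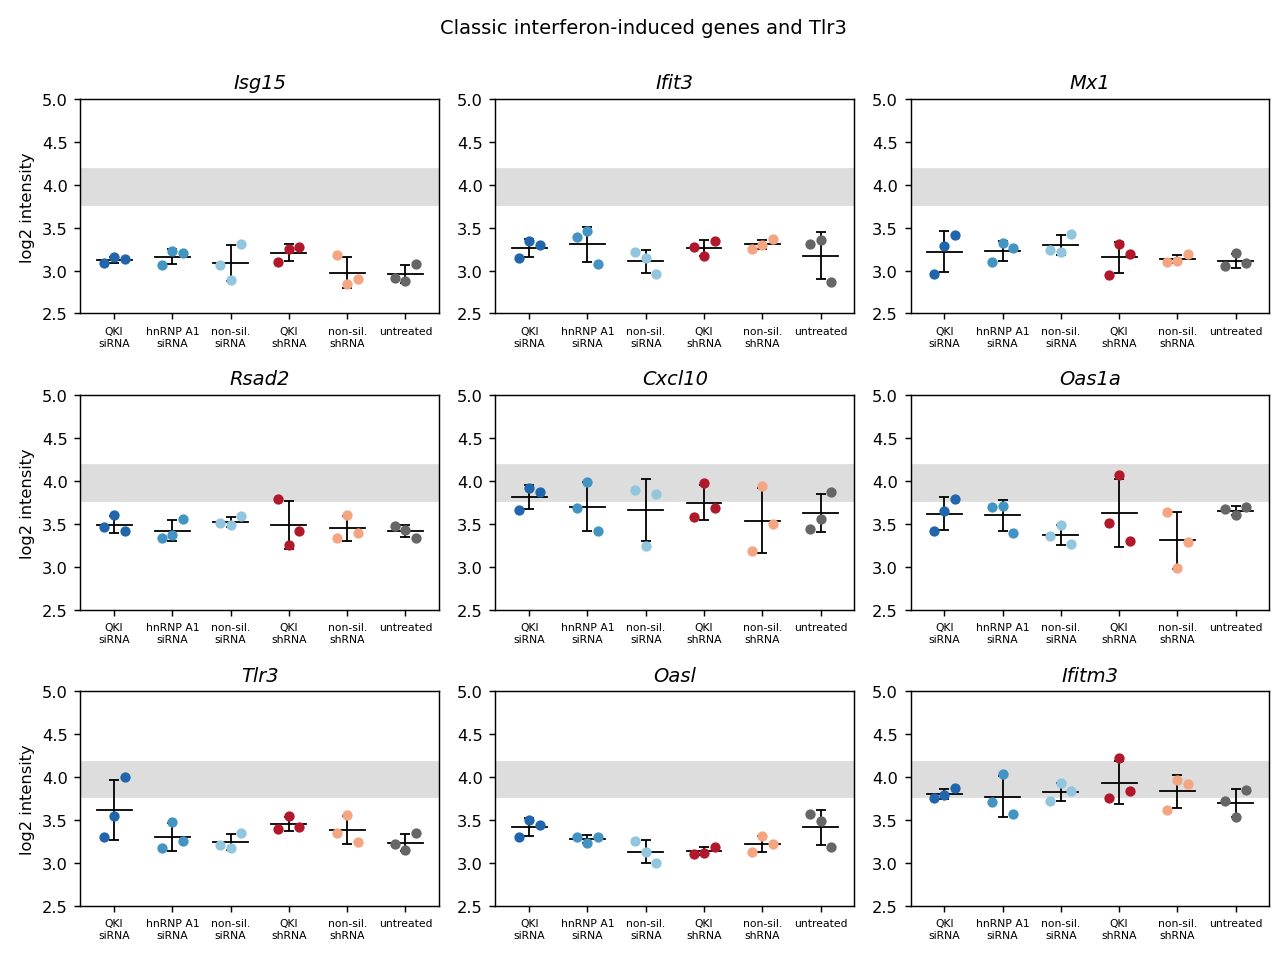
Log2 intensity of Isg15, Ifit3, Mx1, Rsad2, Cxcl10, Oas1a, Tlr3, Oasl and Ifitm3 on each array (points) in the 6 groups, with the mean (horizontal line) and SD (error bar) of 3 arrays. The grey band spans the array medians, 3.77 to 4.18, and the points of all groups lie within or below it except 1 QKI shRNA array for Ifitm3 at 4.22.

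The 7 induced genes Isg15, Ifit2, Ifit3, Mx1, Rsad2, Cxcl10 and Oas1a had log2 differences from -0.19 to 0.17 for the mean of the siRNA groups against untreated cells, and their 95% confidence intervals reached from -0.45 to 0.48 (lowest limma adjusted p = 0.394). For the mean of the shRNA groups the differences were -0.26 to 0.13 with intervals from -0.54 to 0.42 (lowest limma adjusted p = 0.58). For all but Ifit2 these intervals bound the measured log2 differences of dim clusters and not the change in RNA. Single groups spread more widely than these means. Over the 9 genes, with Tlr3 and Adar, each shRNA group against untreated cells gave -0.58 to 0.38. The intervals ran from -0.90 to 0.82 (lowest limma adjusted p = 0.0501). Each siRNA group gave -0.28 to 0.38, with intervals from -0.69 to 0.77 (lowest limma adjusted p = 0.242).

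Of the effectors, 3 lay outside the untreated range on all 9 siRNA arrays without a call. Ifi27, a mitochondrial and nuclear envelope protein strongly induced by interferon, was at 7.79, 7.85 and 8.13 with QKI siRNA, 7.93, 7.96 and 8.42 with hnRNP A1 siRNA and 7.46, 8.06 and 8.15 with non-silencing siRNA, against 7.11, 7.40 and 6.99 in untreated cells. The groups did not overlap, with a log2 difference of 0.81 ± 0.22 (limma adjusted p = 0.0946). Bst2, or tetherin, which holds budding viruses at the cell surface, was at 4.90, 4.76 and 4.43 with QKI siRNA, 4.95, 5.09 and 4.44 with hnRNP A1 siRNA and 4.51, 4.52 and 4.55 with non-silencing siRNA, against 4.20, 4.27 and 4.23 in untreated cells. Here too all 9 siRNA arrays were above the 3 untreated arrays (0.45 ± 0.13, limma adjusted p = 0.118). Ifi44, an antiviral protein that dampens interferon signalling, lay the other way. It was at 4.08, 4.32 and 4.13 with QKI siRNA, 4.26, 4.23 and 3.93 with hnRNP A1 siRNA and 3.93, 4.29 and 4.30 with non-silencing siRNA, against 4.60, 4.59 and 4.56 in untreated cells (-0.42 ± 0.11, limma adjusted p = 0.0879). With 2 members not overlapping higher and 1 lower of 30, the background was 3.28% higher and 1.46% lower of all clusters. Without hnRNP A1 siRNA array 3 limma called Bst2 for the mean of the siRNA groups and for hnRNP A1 siRNA alone, and without untreated array 3 it called Adar for the mean.

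Some values against untreated cells turned on untreated array 3. Stat2, a transcription factor of the interferon-activated complex, was at 6.26, 5.94 and 5.51 with QKI siRNA, 6.10, 5.81 and 6.21 with hnRNP A1 siRNA and 5.67, 5.16 and 5.51 with non-silencing siRNA, against 6.75, 6.73 and 5.77 in untreated cells. Untreated arrays 1 and 2 lay above all siRNA arrays and untreated array 3 among them. Mx2, a relative of Mx1, showed the same split, with 3.42 to 4.05 over the siRNA arrays, against 4.55, 4.56 and 3.53 in untreated cells. In a fit without QKI shRNA array 3 and untreated array 3, an alternative chosen after seeing the data, limma called Stat2 and Mx2 lower and Adar higher for the mean of the siRNA groups, 3 of 30 members, with 5.01% of all clusters called in place of 0.857%. Oasl, an oligoadenylate synthetase-like protein, was dim, at 2.999 to 3.498 over the siRNA arrays and 3.57, 3.49 and 3.18 in untreated cells. Irf9, the DNA-binding part of the complex with STAT2, ranged from 4.23 to 5.28 over the siRNA arrays, against 5.35, 5.27 and 4.44 in untreated cells, and the receptor chains Ifnar1 and Ifngr1 overlapped untreated cells, at 6.11 to 6.72 and 5.58 to 6.88.

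The stable lines were set against untreated cells to ask the same of the hairpins. For the mean of the shRNA groups limma called 0 of 30 members, with 0.243% of all clusters called. Unadjusted, 6 members and 9.6% of all clusters had a p under 0.05. Their median log2 difference was 0.05, beside 0.06 over all clusters. In the non-silencing shRNA line 2 of 30 were called, with 3.26% of all clusters. Ifi27 was higher, at 8.29, 8.71 and 8.96 in the non-silencing shRNA line, against 7.11, 7.40 and 6.99 in untreated cells, without overlap (1.49 ± 0.27, 2.80-fold, limma adjusted p = 0.00893). Ifi44 was lower, at 4.16, 3.91 and 3.90 in the non-silencing shRNA line, against 4.60, 4.59 and 4.56 in untreated cells, also without overlap (-0.60 ± 0.14, limma adjusted p = 0.0288). Without non-silencing shRNA array 3 both calls were lost, and without non-silencing shRNA array 2, untreated array 1 or untreated array 2 that of Ifi44 was.

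In the QKI shRNA line 3 of 30 members were called against untreated cells, all higher, with 2.04% of all clusters called. They were Psmb8 (1.88 ± 0.22, limma adjusted p = 0.000327), Bst2 (1.12 ± 0.16, limma adjusted p = 0.00136) and Tap2 (0.65 ± 0.15, limma adjusted p = 0.0368), whose values are given below with those of the non-silencing line. Without any 1 of the 6 arrays of the compared groups except untreated array 3, the count was 2, and the call of Tap2 was lost without each of the 6. Without untreated array 3 Adar was called higher in its place. Of the 30 members 11 lay higher and 1 lower than untreated cells without overlap, with a background of 9.81% and 6.03%. In the fit without QKI shRNA array 3 and untreated array 3 limma called 6 members, Psmb8 and Bst2 higher and Mavs, Stat2, Irf9 and Mx2 lower, while calls over all clusters were 8.65% in place of 2.04%.

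The QKI shRNA line was then set against the non-silencing shRNA line, lines between which the Qki difference itself was not called. Limma called 10 of 30 members, 9 higher and 1 lower, while it called 10.3% of all clusters, 3.38% higher and 6.9% lower. Without overlap between the lines 11 members lay higher and 2 lower, beside 9.14% and 13.5% of all clusters. The calls over all clusters were 639 higher and 1304 lower, while quantile normalization gave 981 higher and 1015 lower, and centring on array medians 375 higher and 1086 lower. The members' median log2 difference was 0.20, beside 0.01 over all clusters. By role 2 of 4 sensors, 0 of 5 receptors and transcription factors, 6 of 16 effectors and 2 of 5 antigen processing genes were called. These counts come from a fit without pairing, although same-numbered arrays of the 2 lines shared deviations from their group means (correlations 0.25, 0.14 and 0.15). With the replicate number as a block, limma called 9 members over all arrays and 5 with the arrays of the 2 lines alone, and without the block 6 with those arrays alone. Without QKI shRNA array 1, non-silencing shRNA array 1 or non-silencing shRNA array 2 the count was 6. The same control line enters the comparison with untreated cells given above, so the values of both lines and of untreated cells are given side by side.

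Antigen processing held the largest difference. Psmb8 encodes the immunoproteasome subunit that replaces the constitutive chymotrypsin-like subunit after interferon. It was at 6.26, 5.82 and 5.56 in the QKI shRNA line, against 3.28, 3.58 and 3.98 in the non-silencing shRNA line and 3.87, 4.11 and 4.02 in untreated cells. All 3 QKI shRNA arrays stood above the other 15 arrays of the study, since the siRNA arrays ranged from 3.63 to 4.57. The log2 difference between the lines was 2.27 ± 0.22 (4.81-fold, limma adjusted p = 1.48e-05), and the group means were 5.88 ± 0.36 in the QKI shRNA line and 3.61 ± 0.35 in the non-silencing shRNA line (SD, n = 3 each). The control line lay within or below the range of the array medians, so this fold is measured against a dim value.

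Tap2, a chain of the transporter that moves peptides into the endoplasmic reticulum, was at 5.52, 5.42 and 5.82 in the QKI shRNA line, against 5.07, 4.79 and 4.77 in the non-silencing shRNA line and 5.12, 4.77 and 4.93 in untreated cells. The QKI shRNA arrays did not overlap either control (0.71 ± 0.15 between the lines, limma adjusted p = 0.00586). With the replicate block and the arrays of the 2 lines alone its call was lost (limma adjusted p = 0.0604). Its partner Tap1 was at 4.32, 4.37 and 4.42 in the QKI shRNA line, against 4.69, 4.39 and 4.51 in the non-silencing shRNA line and 4.40, 4.46 and 4.40 in untreated cells (-0.16 ± 0.12 between the lines, limma adjusted p = 0.529). Tap1 thus overlapped both controls, while Tap2 lay above them; the difference between these genes was not tested.

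Psmb9, the second immunoproteasome subunit, was at 4.81, 4.76 and 4.59 in the QKI shRNA line, against 4.49, 4.28 and 4.44 in the non-silencing shRNA line and 4.06, 4.41 and 3.91 in untreated cells. The QKI shRNA arrays lay above both controls without a call against either (0.32 ± 0.17 and limma adjusted p = 0.343 between the lines, 0.60 ± 0.17 and limma adjusted p = 0.0997 against untreated cells). B2m, the light chain of MHC class I, was among the brightest clusters and lay at 10.13, 10.24 and 10.17 in the QKI shRNA line, 10.25, 10.16 and 10.06 in the non-silencing shRNA line and 9.68, 9.69 and 10.10 in untreated cells. The 2 lines overlapped (0.02 ± 0.19, limma adjusted p = 0.979).

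Among effectors Bst2 was at 5.34, 5.39 and 5.32 in the QKI shRNA line, against 3.95, 4.06 and 4.38 in the non-silencing shRNA line and 4.20, 4.27 and 4.23 in untreated cells. The QKI shRNA arrays lay close together and above the other 15 arrays, of which the siRNA arrays came nearest at 4.43 to 5.09. The log2 difference between the lines was 1.22 ± 0.16 (2.33-fold, limma adjusted p = 0.000142). Ifi44 was at 4.89, 4.63 and 5.01 in the QKI shRNA line, against 4.16, 3.91 and 3.90 in the non-silencing shRNA line and 4.60, 4.59 and 4.56 in untreated cells. The lines did not overlap (0.85 ± 0.14, limma adjusted p = 0.000836), and the QKI shRNA line lay just above untreated cells (0.26 ± 0.14, limma adjusted p = 0.55) while the control line lay below them.

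Ifi27 was the 1 member called lower. It was at 6.48, 6.51 and 7.56 in the QKI shRNA line, against 8.29, 8.71 and 8.96 in the non-silencing shRNA line and 7.11, 7.40 and 6.99 in untreated cells. QKI shRNA arrays 1 and 2 lay below untreated cells and array 3 above them, and all 3 below the control line (-1.80 ± 0.27, 3.49-fold lower, limma adjusted p = 0.000423). Against untreated cells the QKI shRNA line differed by -0.31 ± 0.27 (limma adjusted p = 0.81), and the non-silencing line was the one called there.

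Ifit2 was at 4.29, 4.20 and 4.69 in the QKI shRNA line, against 3.77, 3.85 and 3.65 in the non-silencing shRNA line and 4.61, 4.27 and 4.12 in untreated cells. The lines did not overlap (0.64 ± 0.15, limma adjusted p = 0.0115), while the QKI shRNA line overlapped untreated cells and the control line lay below them (-0.58 ± 0.15, limma adjusted p = 0.0501). Gbp2, an interferon-induced guanylate-binding protein, was dim, at 3.88, 3.83 and 3.83 in the QKI shRNA line, against 3.31, 3.41 and 3.49 in the non-silencing shRNA line and 3.53, 3.68 and 3.64 in untreated cells. Its QKI shRNA arrays lay above both controls (0.44 ± 0.12 between the lines, limma adjusted p = 0.0263). Dtx3l, a ubiquitin ligase that works with PARP9, was at 4.36, 4.08 and 4.92 in the QKI shRNA line, against 3.67, 3.75 and 3.63 in the non-silencing shRNA line and 4.27, 3.97 and 3.81 in untreated cells. The lines did not overlap (0.77 ± 0.23, limma adjusted p = 0.0485), and untreated cells lay above the control line and overlapped the QKI shRNA line. Its partner Parp9 was at 3.90, 3.89 and 4.26 in the QKI shRNA line, against 3.65, 3.93 and 3.71 in the non-silencing shRNA line, and overlapped it.

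Among the sensors and their partners Adar and Trim25 were called. The RIG-I-like helicases and Eif2ak2 had no value here and Tlr3 was dim, so receptors and partners cannot be compared. Adar was at 6.85, 6.84 and 7.04 in the QKI shRNA line, against 6.33, 6.13 and 6.20 in the non-silencing shRNA line and 6.17, 6.30 and 7.12 in untreated cells. The lines did not overlap (0.69 ± 0.21, limma adjusted p = 0.0467), and the QKI shRNA values lay in the range of the siRNA groups. Trim25, the ubiquitin ligase that activates RIG-I, was at 4.53, 4.53 and 5.04 in the QKI shRNA line, against 3.54, 4.07 and 4.35 in the non-silencing shRNA line and 3.98, 4.35 and 4.06 in untreated cells. It lay above both controls without overlap (0.71 ± 0.21 between the lines, limma adjusted p = 0.0387). Mavs was at 4.38, 4.03 and 4.38 in the QKI shRNA line, against 4.65, 4.84 and 4.54 in the non-silencing shRNA line, lower without overlap and not called (-0.42 ± 0.14, limma adjusted p = 0.0847).

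The calls of Psmb8, Bst2, Ifi44 and Ifi27 between the lines were made in all 17 alternative fits, and that of Tap2 in 16. The calls of the other 5 were lost in part of the 17, Ifit2 in 4, Gbp2 in 7, Adar in 9, Trim25 in 10 and Dtx3l in 11. Their log2 differences stayed above 0 throughout, at 0.49 to 0.73 for Ifit2, 0.38 to 0.48 for Gbp2, 0.62 to 0.83 for Adar, 0.34 to 0.90 for Trim25 and 0.53 to 0.95 for Dtx3l. With the replicate block over all arrays the call of Dtx3l was lost (limma adjusted p = 0.0689). With the block and the arrays of the 2 lines alone those of Ifit2 (limma adjusted p = 0.0983), Gbp2 (0.138), Trim25 (0.0525) and Dtx3l (0.0894) were. Adar lost it without any 1 of the 6 arrays (limma adjusted p from 0.0729 to 0.135), Trim25 without any but non-silencing shRNA array 3, and Dtx3l without any but QKI shRNA array 2. Gbp2 lost it without QKI shRNA array 1 or 2 or non-silencing shRNA array 1 or 2, and Ifit2 without non-silencing shRNA array 3 (limma adjusted p = 0.0559). Without QKI shRNA array 3 and untreated array 3 limma called 8 members, among them Stat2, lower in the QKI shRNA line, and neither Gbp2, Trim25 nor Dtx3l, with 13.1% of all clusters called.

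**Figure D3:**
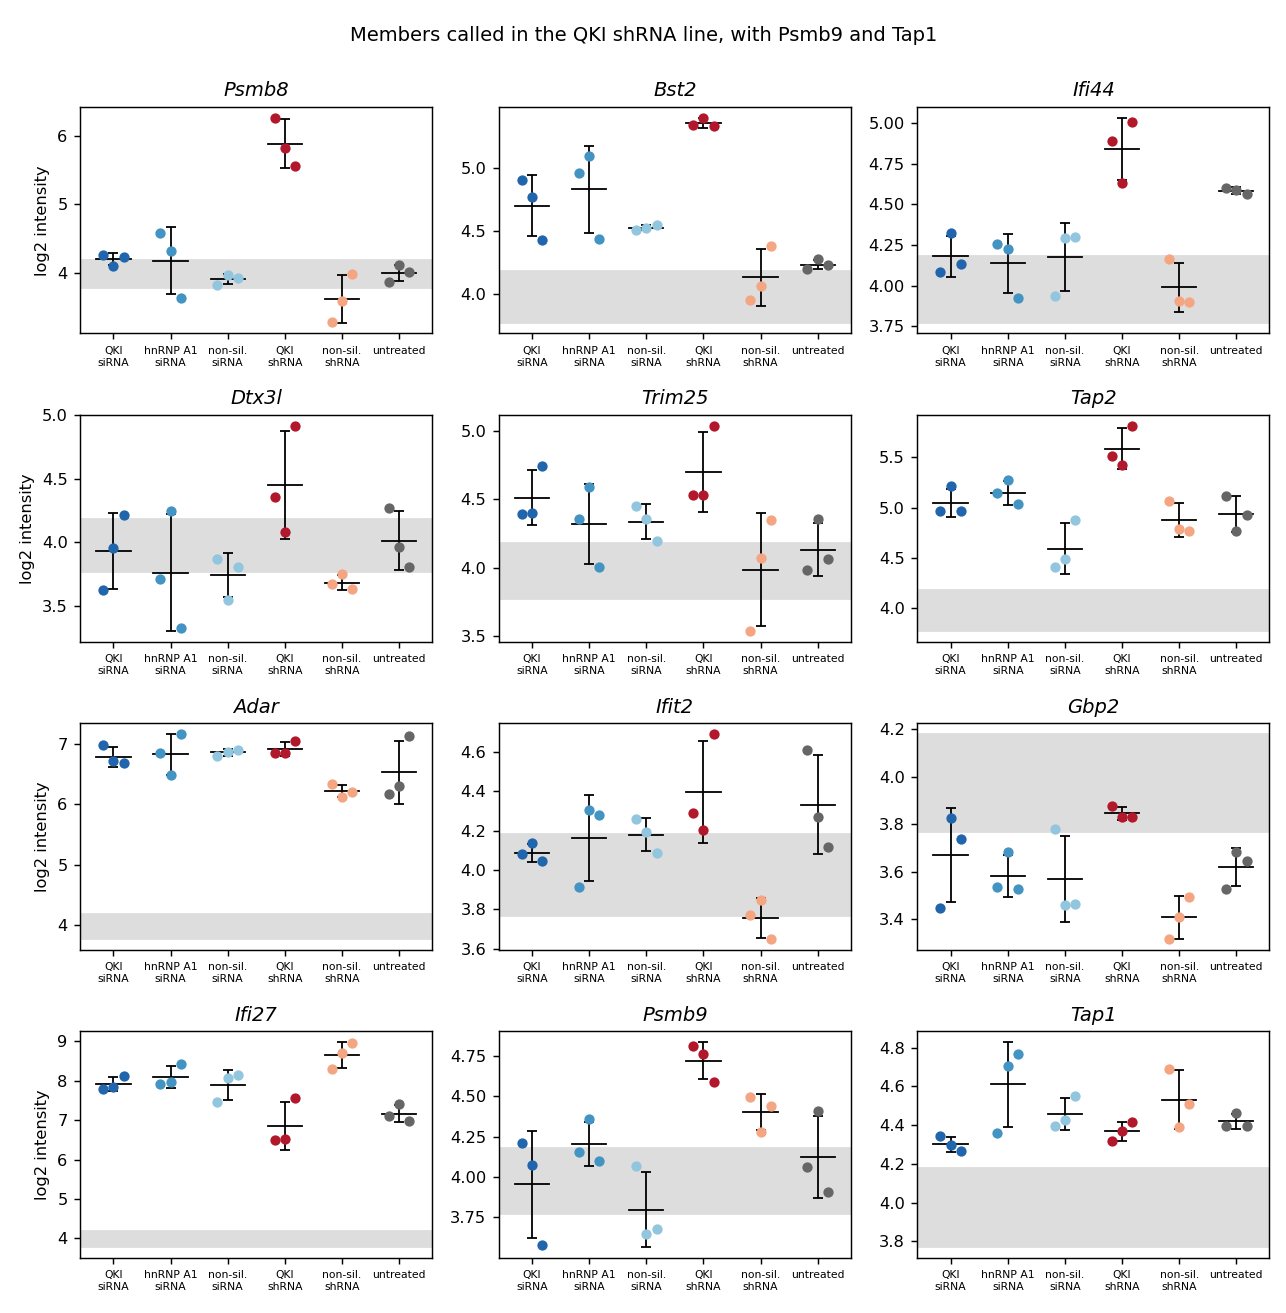
Log2 intensity on each array (points) of the 10 members called between the QKI shRNA and non-silencing shRNA lines, with Psmb9 and Tap1, in the 6 groups, with the mean (line) and SD (bar) of 3 arrays and the array medians as a grey band. Axes differ between panels and do not start at 0. In the panels of Psmb8 and Bst2 the QKI shRNA arrays stand above all other arrays, and in that of Ifi27 the non-silencing shRNA arrays stand above untreated cells.

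The 19 members never called ranged from -0.56 to 0.79 between the lines. The upper end was Mx2, at 3.80, 3.70 and 5.65 in the QKI shRNA line, against 3.47, 3.75 and 3.57 in the non-silencing shRNA line. Its difference of 0.79 ± 0.39 (limma adjusted p = 0.279) thus came from QKI shRNA array 3, which had the highest value of the study. The lower end was Ifngr1, the ligand-binding chain of the interferon gamma receptor, at 6.25, 6.44 and 6.72 in the QKI shRNA line, against 7.32, 6.61 and 7.16 in the non-silencing shRNA line. Stat2 was at 5.91, 5.97 and 6.99 in the QKI shRNA line, against 6.41, 6.63 and 6.90 in the non-silencing shRNA line, and Irf9 at 4.09, 4.21 and 5.13, against 4.24, 4.92 and 5.21. In both QKI shRNA array 3 lay apart from arrays 1 and 2 and near the control line. Irf1, the transcription factor that carries interferon gamma signals to Psmb9 and Tap1, was at 4.27, 4.26 and 4.48 in the QKI shRNA line, against 4.23, 4.13 and 4.09 in the non-silencing shRNA line, higher without overlap and not called (0.19 ± 0.12).

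The promoters of the 4 members whose calls held in every alternative fit are shown because interferon acts on such genes through a short motif near their start. The windows are RefSeq sequences of assembly GRCr8, 250 bases before to 50 after the annotated start, read on the strand of the gene from 5′ to 3′: Psmb8 at chr20:4656982-4657281 on the minus strand, Bst2 at chr16:18254918-18255217 on the minus strand, Ifi44 at chr2:243303791-243304090 on the minus strand and Ifi27 at chr6:128355062-128355361 on the plus strand. Capitals mark matches to the interferon-stimulated response element, searched as GAAA, any 2 bases and GAAA, or on the other strand TTTC, any 2 bases and TTTC.
Psmb8: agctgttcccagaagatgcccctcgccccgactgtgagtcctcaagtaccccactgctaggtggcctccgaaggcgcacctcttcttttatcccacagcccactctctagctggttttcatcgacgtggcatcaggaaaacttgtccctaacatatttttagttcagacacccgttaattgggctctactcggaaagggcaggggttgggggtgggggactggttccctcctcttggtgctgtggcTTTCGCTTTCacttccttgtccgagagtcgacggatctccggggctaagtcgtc
Bst2: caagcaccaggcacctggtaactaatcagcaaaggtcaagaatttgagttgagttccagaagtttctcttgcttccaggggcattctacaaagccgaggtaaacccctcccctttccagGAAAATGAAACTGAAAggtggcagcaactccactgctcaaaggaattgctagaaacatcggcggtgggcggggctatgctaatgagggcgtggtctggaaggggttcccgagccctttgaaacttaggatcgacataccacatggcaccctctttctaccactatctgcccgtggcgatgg
Ifi44: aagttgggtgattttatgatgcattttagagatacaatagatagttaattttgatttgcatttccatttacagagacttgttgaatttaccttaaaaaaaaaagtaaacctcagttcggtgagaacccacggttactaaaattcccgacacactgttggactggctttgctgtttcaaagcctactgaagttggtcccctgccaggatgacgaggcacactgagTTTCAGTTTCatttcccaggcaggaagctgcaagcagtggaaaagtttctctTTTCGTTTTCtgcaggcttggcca
Ifi27: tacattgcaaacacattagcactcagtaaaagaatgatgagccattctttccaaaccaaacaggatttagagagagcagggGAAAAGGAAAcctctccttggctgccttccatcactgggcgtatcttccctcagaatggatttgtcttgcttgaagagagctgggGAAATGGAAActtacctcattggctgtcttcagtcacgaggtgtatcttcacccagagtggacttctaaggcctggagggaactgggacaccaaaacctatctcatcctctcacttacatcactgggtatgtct

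Counted from the start, the matches began at -4 in Psmb8, at -131 and -125 in Bst2, where they overlap each other, at -26 and 26 in Ifi44, and at -169 and -84 in Ifi27. Of 34 members with a promoter entry 19 held a match (55.9%), against 3.92% of all 33469 promoters. The members were listed for their place in the interferon response, so a higher share than over all promoters was built into the list. Among the members called between the lines 7 of 8 with an entry held one (87.5%), with Trim25 the exception. Adar and Ifit2 had no entry. Among measured members not called 7 of 18 held one (38.9%). The difference between these shares was not tested. The called members include Ifi27, which was lower, and no receptor or transcription factor, so call and role cannot be told apart here. A second motif, the gamma-activated site of interferon gamma signalling, was searched as TTCNNNGAA, which reads the same on both strands. It was found in 2 of 8 called members (25%), in 4 of 18 measured members not called (22.2%) and in 8.87% of all promoters. The matches lay at -245 in Psmb8 and at -137 in Bst2, where the match overlaps the first one of the other motif. The matches describe letters in these windows and were not measured as binding. The dim genes Ifit3, Oas1a, Rsad2, Cxcl10 and Ifitm3 held matches to the first motif as well, as did Tap1 and B2m, none of them called.

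At the exon level, where each gene is covered by several probe sets on the same arrays, the called members were described probe set by probe set. All 8 probe sets of Psmb8 showed higher values with the QKI hairpin than with the non-silencing one, by 0.32 to 3.44 log2 units, and all 7 of Ifi27 were lower, with differences from -2.63 to -1.28. All 5 of Bst2 were higher, but 2 of them carried most of the difference, which reached 3.46 beside a median of 0.35. Of the other called members 12 of 14 probe sets of Ifi44, 12 of 13 of Tap2, 9 of 9 of Trim25, 6 of 6 of Dtx3l, 15 of 19 of Adar, 3 of 4 of Ifit2 and 9 of 10 of Gbp2 were higher. Probe sets share arrays and are not replicates, and neither isoforms nor probe response were tested.

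**Figure D4:**
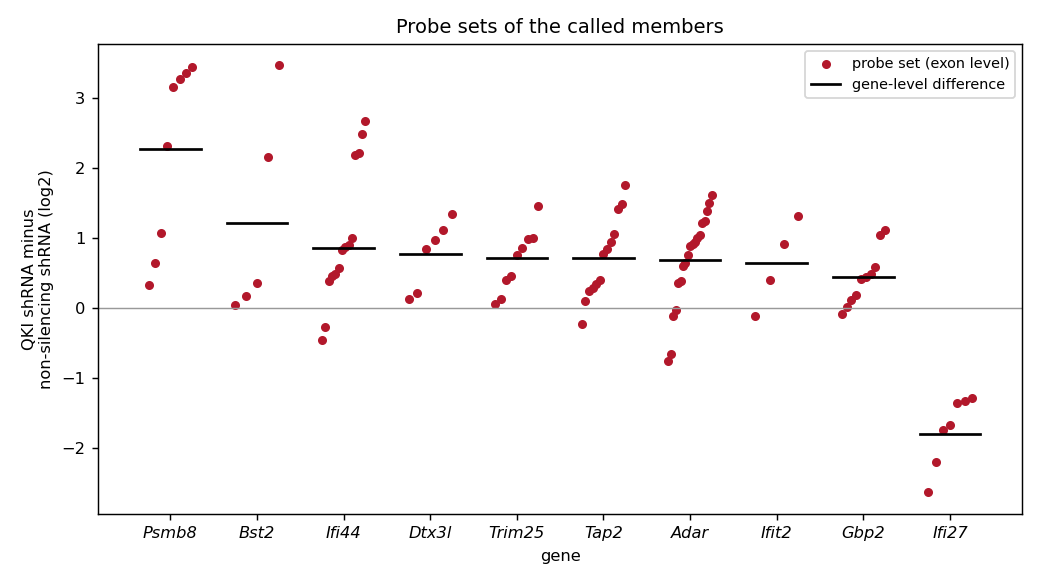
Log2 difference, QKI shRNA line minus non-silencing shRNA line, of each exon-level probe set (points) of the 10 called members, with the gene-level difference as a black line. Points of Psmb8, Bst2, Trim25 and Dtx3l all lie above 0, those of Ifi27 all below, and those of Adar spread from -0.75 to 1.61.

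The siRNA against QKI was set against non-silencing siRNA, where limma called 0 of 30 members and 0 of all clusters (0%). Unadjusted, 4 members and 9.11% of all clusters had a p under 0.05. The member of lowest p was Tap2, at 4.96, 5.21 and 4.97 with QKI siRNA, against 4.41, 4.49 and 4.88 with non-silencing siRNA, without overlap (0.46 ± 0.15, limma adjusted p = 0.409). Psmb8 was at 4.26, 4.09 and 4.23 with QKI siRNA, against 3.82, 3.97 and 3.92 with non-silencing siRNA. These groups did not overlap either, with 0.29 ± 0.22 (limma adjusted p = 0.754). Bst2 and Ifi44 differed by 0.17 ± 0.16 and 0.00 ± 0.14, and Ifi27 by 0.03 ± 0.27.

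The difference between both QKI comparisons was tested as an interaction. Limma called 4 of 30 members, with 4.71% of all clusters called. The difference of the hairpin comparison exceeded that of the siRNA comparison for Psmb8 by 1.97 ± 0.32 (limma adjusted p = 0.00253), for Bst2 by 1.05 ± 0.23 (limma adjusted p = 0.0161) and for Ifi44 by 0.85 ± 0.20 (limma adjusted p = 0.0216). For Ifi27 the value was -1.83 ± 0.38 (limma adjusted p = 0.0126). The call of Ifi44 was lost without QKI siRNA array 1, QKI shRNA array 1, non-silencing siRNA array 2 or 3, or non-silencing shRNA array 2 or 3, and after median centring. The groups differ in the level of Qki, in the way and time the RNA was delivered and in being a selected line, and these cannot be told apart.

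**Figure D5:**
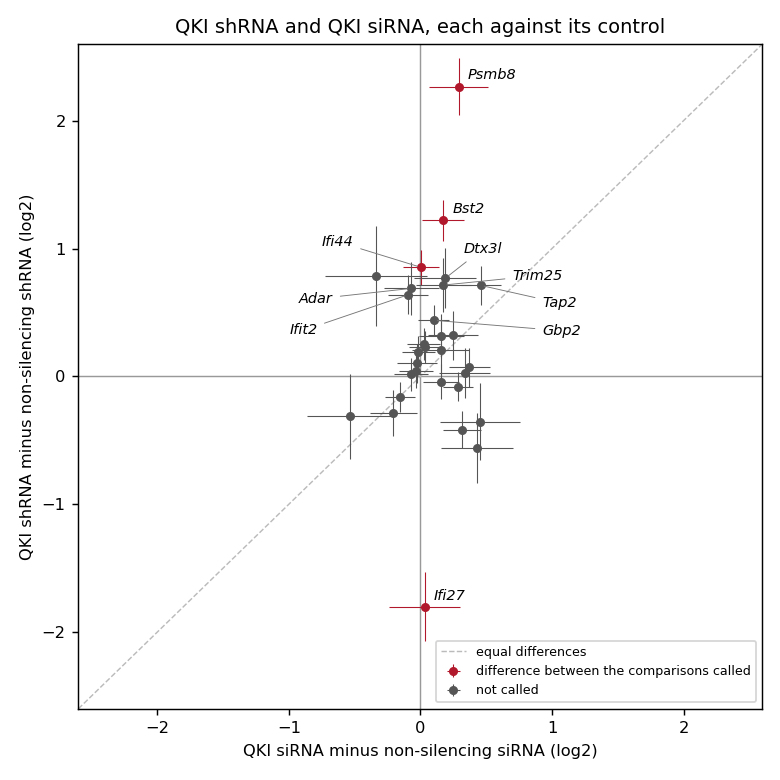
Log2 difference of each measured member with QKI siRNA against non-silencing siRNA (horizontal axis) and in the QKI shRNA line against the non-silencing shRNA line (vertical axis), with limma standard errors as bars. Red points are the 4 members called for the difference between both comparisons, Psmb8, Bst2 and Ifi44 above the dashed line of equal differences and Ifi27 below it.

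The siRNA against hnRNP A1 gave 0 of 30 called members against non-silencing siRNA, with 0.00529% of all clusters called. Unadjusted, 5 members and 7.04% of all clusters had a p under 0.05. The antigen processing genes Tap2 and B2m were the members of lowest p. Tap2 was at 5.14, 5.27 and 5.03 with hnRNP A1 siRNA, against 4.41, 4.49 and 4.88 with non-silencing siRNA (0.56 ± 0.15, limma adjusted p = 0.411). B2m was at 10.32, 10.23 and 10.26 with hnRNP A1 siRNA, against 9.86, 9.75 and 9.47 with non-silencing siRNA (0.57 ± 0.19, limma adjusted p = 0.503). Neither gene's groups overlapped, and non-silencing siRNA arrays 1 and 2 were the lowest of all 18 for Tap2.

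The mean of the shRNA groups was also set against the mean of the siRNA groups, where limma called 2 of 30 members, both higher and both immunoproteasome subunits, with 4.67% of all clusters called. Psmb9 was at 4.81, 4.76 and 4.59 in the QKI shRNA line and 4.49, 4.28 and 4.44 in the non-silencing shRNA line, against 3.58 to 4.36 over the 9 siRNA arrays (0.58 ± 0.11, limma adjusted p = 0.00691). Only the lowest shRNA array overlapped the siRNA range. The difference of Psmb8, 0.66 ± 0.14 (limma adjusted p = 0.0154), came from the QKI shRNA line, since the non-silencing shRNA line at 3.28 to 3.98 lay within or below the siRNA arrays. Without QKI shRNA array 1 that call was lost (limma adjusted p = 0.0541), and without QKI siRNA array 1 limma called Ifngr1 and Stat2 too.

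Of 147 other genes of these pathways 91 were measured, and between the shRNA lines 7 were called higher and 1 lower, with a median log2 difference of 0.09. That is 8.79% of them, beside 10.3% of all clusters, so the called genes are given as values of single genes and not as a result about these pathways. Ptpn2, a phosphatase that removes activating phosphates from the kinase JAK1, was at 6.92, 6.29 and 6.73 in the QKI shRNA line, against 5.51, 5.44 and 4.90 in the non-silencing shRNA line and 5.76, 5.61 and 5.96 in untreated cells. It lay above both controls, and was called against both (1.36 ± 0.22 and limma adjusted p = 0.000659 between the lines, 0.87 ± 0.22 and limma adjusted p = 0.0497 against untreated cells). Lif, a cytokine of the interleukin 6 family, was at 5.87, 5.73 and 4.95 in the QKI shRNA line, against 4.28, 4.62 and 4.77 in the non-silencing shRNA line and 4.70, 4.43 and 4.47 in untreated cells. It too was called against both (0.96 ± 0.23 between the lines, limma adjusted p = 0.0135, and 0.99 ± 0.23 against untreated cells, limma adjusted p = 0.0391).

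Nfkb2, a subunit of the NF-kB factors, rose by 0.71 ± 0.17 (limma adjusted p = 0.0117) between the lines and Tapbpl, a peptide editor of MHC class I, by 0.70 ± 0.13 (limma adjusted p = 0.00272). The gene called lower was RT1-DMa, the rat MHC class II peptide exchanger, at 6.20, 6.55 and 6.23 in the QKI shRNA line, against 8.20, 7.29 and 7.41 in the non-silencing shRNA line and 6.65, 6.58 and 7.17 in untreated cells (-1.31 ± 0.27 between the lines, limma adjusted p = 0.00432). The control line stood above both other groups, as for Ifi27. Of 24 other interferon-induced genes 0 were called between the lines by limma, beside 10.3% of all clusters, and 5 had an unadjusted p under 0.05, beside 20.4% of all clusters. Against untreated cells 1 of them, Cmpk2, a nucleotide kinase, was called in the QKI shRNA line and was lower there, at 4.38, 4.63 and 4.73, against 5.44, 5.17 and 6.003 in untreated cells (-0.96 ± 0.18, limma adjusted p = 0.0101). Limma called 0 of the 4 measured interferon genes (Ifna1, Ifnb1, Ifng and Ifnl3) in the 12 comparisons. The 1 unadjusted p under 0.05 was that of Ifng between the lines. Over all arrays the 4 genes spanned 2.85 to 6.54, and Ifnb1 lay between 2.99 and 3.72. Against untreated cells their log2 differences ran from -0.21 to 0.82 with QKI siRNA and from -0.11 to 0.21 with hnRNP A1 siRNA. They ran from -0.23 to 0.51 with non-silencing siRNA and from -0.16 to 0.51 for the mean of the siRNA groups.

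For the mean of the siRNA groups against untreated cells the 1 call among the 91 (1.1%, beside 0.857% of all clusters) was Calr, the chaperone calreticulin, which helps load MHC class I. It was at 11.71, 11.49 and 11.36 with QKI siRNA, 11.62, 11.53 and 11.39 with hnRNP A1 siRNA and 11.43, 11.47 and 11.27 with non-silencing siRNA, against 10.80, 10.63 and 10.78 in untreated cells. All 9 siRNA arrays were above the untreated ones (0.73 ± 0.14, limma adjusted p = 0.0306), and the shRNA groups were lower than the siRNA groups (-0.73 ± 0.11, limma adjusted p = 0.00181).

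Markers of immune cells, which express many of these genes, were read on the same arrays. Of 14 microglial and macrophage markers 12 had means below the median of all clusters, and the list mean was 3.59 to 3.85 in the QKI shRNA line, against 3.47 to 3.73 in the non-silencing shRNA line and 3.58 to 3.61 in untreated cells. Ptprc, Csf1r, Itgam and Cx3cr1 lay at group means of 3.38, 3.43, 3.43 and 3.32 in the QKI shRNA line and 3.28, 3.39, 3.38 and 3.31 in the non-silencing shRNA line, below every array median. The 1 marker called was Cd14, a coreceptor of Toll-like receptors that other cells can express, higher by 1.35 ± 0.23 (limma adjusted p = 0.00124). All 5 measured markers of T cells, B cells and natural killer cells were dim, with list means of 3.29 to 3.63 in the QKI shRNA line and 3.23 to 3.43 in the non-silencing shRNA line. The progenitor list mean was 7.62 to 8.40 in the QKI shRNA line, against 8.37 to 8.62 in the non-silencing shRNA line, and Olig1, a lineage transcription factor, was lower by -1.26 ± 0.28 (limma adjusted p = 0.00717). Of 6 astrocyte markers 3 were called between the lines. Gfap, an intermediate filament, was at 6.26, 5.70 and 7.81 in the QKI shRNA line, against 3.66, 4.29 and 4.89 in the non-silencing shRNA line and 6.62, 6.76 and 4.64 in untreated cells (2.31 ± 0.57 between the lines, limma adjusted p = 0.0143). Slc1a3, a glutamate transporter, was higher by 1.42 ± 0.33 (limma adjusted p = 0.00989), and S100b, a calcium-binding protein, was lower by -3.68 ± 0.27 (limma adjusted p = 1.37e-06). The astrocyte list mean was 4.47 to 4.98 in the QKI shRNA line, against 4.47 to 4.69 in the non-silencing shRNA line and 4.60 to 5.18 in untreated cells. The part of these markers in the calls above was not tested.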

How the data were processed

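Gene expression was measured in rat CG-4 cells on Affymetrix exon arrays, 6 groups of 3 arrays, taken from the labels. The authors deposited log2 intensities at the gene level (18901 transcript clusters) and at the exon level (204586 probe sets). RMA and Partek are named in the submitters' processing notes without version or role; the genome build, the annotation and the normalization between arrays were not given in the sources used here. Trizol extraction, column clean-up, removal of ribosomal RNA and sense-strand labelling are named in the labels' protocols. Precision is limited by how many arrays a group has, and detection calls were not used.

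In the platform annotation 13327 clusters had 1 symbol, 620 several and 4954 none; no gene was named from the latter kinds. Symbols were updated through RefSeq gene numbers of assembly GRCr8, which matched 13232 clusters. Each measured member had 1 cluster.

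Group means were fitted over all 18 arrays with limma version 3.58.1 in R version 4.3.3 (data.table version 1.17.8, statmod version 1.5.0), using lmFit and eBayes (12 degrees of freedom from the residuals and 3.57 from the prior), and two-sided p-values were adjusted over all clusters by the Benjamini-Hochberg method. The fit was tested on simulated data with independent noise on each array. Such data hold neither deviations shared between arrays nor single arrays that stand apart, so the test does not cover these. The members and the gene lists were chosen with earlier results of these data known. Array values are given for members called in any of the 12 comparisons. They are also given, called or not, for the 9 measured of 14 genes listed for the double-stranded RNA response. Of other pathway genes, up to 4 called per direction and comparison are named in the main comparisons. Further genes with array values (such as Stat2, Mx2, Psmb9 and Tap1) were chosen after their values were seen.

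Same-numbered arrays were checked for shared deviations from group means, with the numbers taken from the labels' titles. Between the QKI shRNA and non-silencing shRNA lines these correlated at 0.25, 0.14 and 0.15. In the other tested comparisons of 2 groups not all 3 correlations were above 0.1. Of all 15 pairs of groups, 5 had all 3 above 0.1, and single correlations ran from -0.51 to 0.53. Among these 5, QKI siRNA and hnRNP A1 siRNA, both in the siRNA mean, correlated at 0.53, 0.32 and 0.35. QKI siRNA and QKI shRNA, both in the interaction, correlated at 0.34, 0.16 and 0.18. The main fit had no replicate term, so its p-values leave this sharing out, and it entered only as the replicate block among the alternatives. Alternatives were median centring, quantile normalization, the compared arrays alone, a filter at the 25th percentile, an intensity trend, a replicate block, array weights, no moderation, exon-level means and each array left out.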

Additional observations from a re-analysis of the deposited data

Results flagged for a closer look

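Members whose QKI difference was not the same in both QKI comparisons are listed here, with the interaction tested by limma. The difference between the QKI shRNA line and its control minus that between QKI siRNA and its control was 1.97 ± 0.32 for Psmb8 (adjusted p = 0.00253), 1.05 ± 0.23 for Bst2 (adjusted p = 0.0161), 0.85 ± 0.20 for Ifi44 (adjusted p = 0.0216) and -1.83 ± 0.38 for Ifi27 (adjusted p = 0.0126). For Ifi27 the non-silencing shRNA line lay above untreated cells, and for Ifi44 below them, so the control line takes part in both values.

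Members that differed between the mean of the shRNA groups and the mean of the siRNA groups were Psmb9, by 0.58 ± 0.11 (adjusted p = 0.00691), and Psmb8, by 0.66 ± 0.14 (adjusted p = 0.0154). Without QKI shRNA array 1 the call of Psmb8 was lost (adjusted p = 0.0541). Groups of 3 arrays were not tested for single arrays that stand apart.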

How the results depend on the processing

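Over 21 calls of a member in a comparison, 388 alternative fits kept the call in 318 and lost it in 70, and 0 reversed. Between the shRNA lines 10 members were called, 6 with the compared arrays only, 5 with the replicate block in those arrays, 6 to 7 with each array left out, 11 from exon-level means and 14 with array weights. For the non-silencing shRNA line against untreated cells, 2 were called, 1 after median centring, quantile normalization or with the compared arrays only, and 0 to 3 with each array left out. Array weights, under which far more clusters were called in all (1118 to 8368), gave the largest counts: 8 for QKI siRNA and 2 for hnRNP A1 siRNA against non-silencing siRNA; against untreated cells 7 for non-silencing siRNA, 10 for QKI siRNA, 9 for hnRNP A1 siRNA, 8 for the non-silencing shRNA line, 11 for the QKI shRNA line, 9 for the siRNA mean and 9 for the shRNA mean; 5 for the shRNA mean against the siRNA mean and 10 for the interaction. Without both QKI shRNA array 3 and untreated array 3, chosen after seeing the data, calls over all clusters against untreated cells were also more (1.04% to 8.65% in place of 0.0794% to 3.26%), and the members' counts against untreated cells were 1 for non-silencing siRNA (Stat2), 2 for QKI siRNA (Stat2 and Mx2), 1 for hnRNP A1 siRNA (Mx2), 4 for the non-silencing shRNA line, 6 for the QKI shRNA line, 3 for the siRNA mean and 2 for the shRNA mean, and 4 for the shRNA mean against the siRNA mean. With the replicate block the siRNA mean had 1 call (Ifi27), and the block changed no other count by over 1.5 times outside the shRNA lines. With each array left out the counts were 2 to 3 for the QKI shRNA line against untreated cells, 1 to 4 for the shRNA mean against the siRNA mean, 3 to 6 for the interaction, 0 to 1 for hnRNP A1 siRNA and for the siRNA mean against untreated cells, and 0 to 0 for the other 5 comparisons. The cause of these shifts was not tested. Median centring moved arrays by -0.22 to 0.19 log2 units. Dim clusters, 13 of 30 members below the median, limit what these arrays can show.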
